A study of Mus musculus with 2 samples.

Results

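The immunoproteasome and the class I antigen presentation pathway were followed in mouse embryonic fibroblasts (MEFs) through 10 genes: the catalytic subunits Psmb8, Psmb9 and Psmb10, the activator subunits Psme1 and Psme2, the peptide transporter genes Tap1 and Tap2, the loading factor Tapbp, the class I light chain B2m and the trimming peptidase Erap1. The genes were selected on earlier results of this same comparison, the log2 ratios of these arrays, so every ratio below is a description. The probe sets taken were those that the platform annotation assigns to exactly one of these symbols. This gave 16 probe sets for 9 of the 10 genes, out of 45101 probe sets and 18193 genes on the array. Psme2 has no value here, because its probe set carries a second gene symbol, Psme2b. The comparison is between 1 array of Fut8+/+ MEFs and 1 array of Fut8-/- MEFs, grown alike in serum-containing medium with no treatment named. Fut8 encodes the enzyme that adds core fucose to N-glycans, and the Fut8-/- cells lack both working copies. The design text speaks of 3 cultures per genotype, whereas 1 array per genotype is given, with the titles MEF_WT3 and MEF_KO3. What the 3 in these titles stands for is not stated. The sources used here do not give the strain of the mice, the age of the embryos or the number of embryos behind each culture. Nothing below has a replicate check, and no test of genotype can be made.

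Proteasomes degrade cytosolic proteins into peptides in a barrel-shaped core, the 20S particle, whose cutting sites sit on 3 subunits. Interferons induce alternative versions of these subunits, which take the places of the constitutive ones in newly built particles and give the immunoproteasome. The PA28 activator, made of the products of Psme1 and Psme2, caps the core. The resulting peptides are carried into the endoplasmic reticulum by the Tap1-Tap2 transporter, trimmed by Erap1 and loaded with the help of tapasin, the product of Tapbp, onto a class I heavy chain paired with beta-2-microglobulin, the product of B2m. Fibroblasts use this pathway as most nucleated cells do, at a level that interferon raises.

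The upstream sequences of the genes on which the results turn are shown first, from RefSeq on build GRCm38.p6, 5′ to 3′ on the strand given. The promoter table held 9 of the 10 genes, Tap2 being the one without an entry, in 10 windows of 300 bases that run from 250 bases before a start to 50 bases after it. Capitals mark matches on either strand to 3 motifs: TTCNNNGAA (the GAS element of interferon-gamma signalling), GAAA followed by GAAA with any 2 bases between (the core of the ISRE element of type I interferon signalling) and GGG followed after any 5 bases by CC (a loose form of the kappa-B site). The first is the stretch before Psmb8, the gene with the lowest ratio, at chr17:34198045-34198194 on the plus strand. The second, at chr17:34187331-34187555 on the plus strand, is the whole interval between the starts of Tap1 and Psmb9, which are transcribed away from each other. The third, before B2m at chr2:122147537-122147686 on the plus strand, holds an ISRE core next to 2 overlapping kappa-B matches.
Psmb8: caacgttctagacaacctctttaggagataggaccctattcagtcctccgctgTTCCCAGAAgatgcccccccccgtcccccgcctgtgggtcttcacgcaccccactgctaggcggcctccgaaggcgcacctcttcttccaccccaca
Tap1 and Psmb9: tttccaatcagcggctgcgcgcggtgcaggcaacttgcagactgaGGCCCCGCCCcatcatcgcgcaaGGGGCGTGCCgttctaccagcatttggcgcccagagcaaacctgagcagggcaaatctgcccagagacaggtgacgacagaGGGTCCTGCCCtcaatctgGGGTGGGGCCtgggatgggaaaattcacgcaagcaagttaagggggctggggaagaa
B2m: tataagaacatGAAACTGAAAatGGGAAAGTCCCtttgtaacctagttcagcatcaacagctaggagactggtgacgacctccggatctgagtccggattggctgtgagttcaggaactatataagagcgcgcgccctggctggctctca

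Among the windows of the 9 genes, a GAS match was present for 1 gene, Psmb8, and for 8.30% of all 32851 windows in the table. An ISRE core was found for 3 genes, B2m, Erap1 and Psme1, and for 3.44% of all windows. The Erap1 match, TTTCACTTTC on the plus strand, spans the start of the gene, and the Psme1 match, TTTCGCTTTC, lies just after it. The kappa-B letters were found for 5 genes and for 50.8% of all windows, so they are common letters, also where they stand between Tap1 and Psmb9. A match is a description of these letters only.

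Over the whole array, log2 ratios (Fut8-/- over Fut8+/+) were centred by removing a shift of -0.22, which multiplies the Fut8-/- signals by 1.16; signals below are printed as deposited, and ratios and folds are centred. Scaled signals under a floor of 12.3 were raised to it. A gene counts as measured where its brighter array, after scaling, reached a signal of 39.1, and as higher or lower where the ratio was at least 2-fold. Of 10164 measured genes, 860 (8.46%) were lower and 618 (6.08%) higher in Fut8-/-; with no centring they were 1205 and 416, a share of higher genes of 25.7% where it had been 41.8%. Fut8 itself had signals of 191 and 11.7 at its brightest probe set; the sources used here do not say whether that probe set reads the disrupted part of the gene. Probe sets of one gene scattered with an SD of 0.40 in log2 ratio, or 1.32-fold, over 5389 genes. This is a technical spread within the pair of arrays and is the only error available for a single value.

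The pathway did not move as a block. Of the 9 genes, 2 were at least 2-fold lower in Fut8-/- (Psmb8 and Tap1), against 8.46% of all measured genes, 0 were at least 2-fold higher, against 6.08%, and 7 lay between. These genes were chosen with such values known, so nothing is read from the count. Psmb8 was 10.5-fold lower, whereas Psmb10, which encodes another catalytic subunit of the same particle, was 1.86-fold higher. The median log2 ratio of the 9 genes was -0.38, beside 0 over all measured genes. All 9 genes passed the limit of 39.1 on both arrays, so none entered through the array where it was brighter. Nearest to the 2-fold limit were Tap1, past it with a log2 ratio of -1.14, and, not reaching it, Psmb9 at -0.72 and Psmb10 at 0.89.

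**Figure D1:**
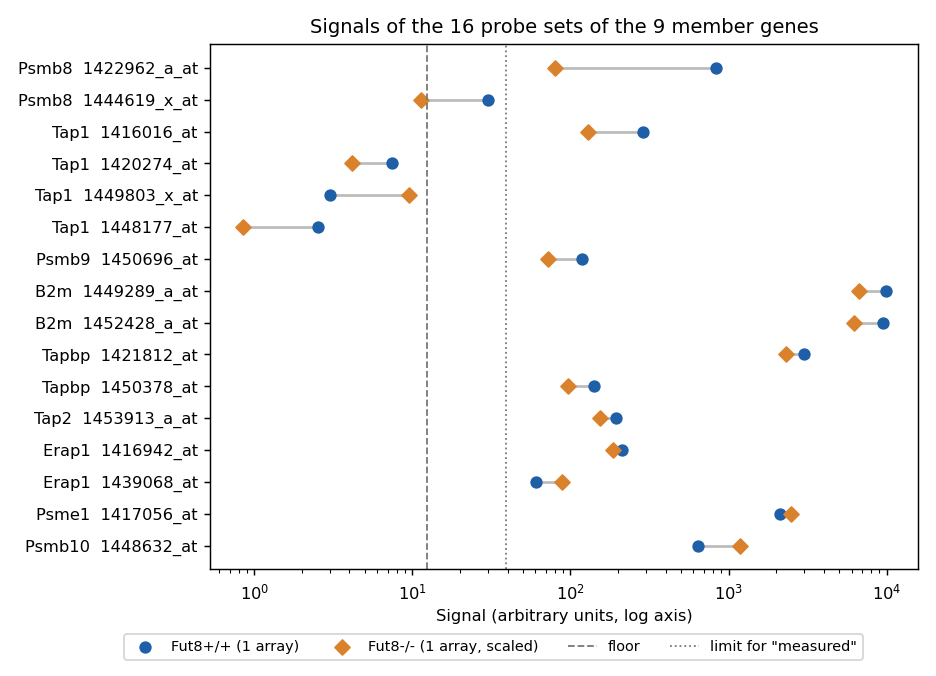
Signal on a log axis (arbitrary units) for each of the 16 probe sets of the 9 genes, with the Fut8+/+ array as circles and the Fut8-/- array, multiplied by 1.16, as diamonds; the dashed line is the floor of 12.3 and the dotted line the limit of 39.1. The widest gap above the floor is that of the bright Psmb8 probe set, and the order is reversed for Psme1, Psmb10, the dimmer Erap1 probe set and a Tap1 probe set below the floor.

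Psmb8 encodes the inducible subunit that takes the chymotrypsin-like position of the core. Its bright probe set had a signal of 839 in Fut8+/+ and 68.8 in Fut8-/-, a log2 ratio of -3.39. It ranked 68 from the lowest among the ratios of the 10164 measured genes. The second probe set was dim, at 30.2 and 9.74, below the measured limit on both arrays and below the floor on the Fut8-/- array; its ratio of at least 2.44-fold lower has the same direction. Both probe sets were therefore brighter in Fut8+/+, and only the first gives a size. The second carries the manufacturer's suffix for probes that may bind related transcripts, so its value cannot be assigned to Psmb8 with certainty.

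Psmb9, whose product takes the caspase-like position, had signals of 119 and 62.4. The log2 ratio was -0.72, or 1.65-fold lower. Psmb10, whose product takes the trypsin-like position, went the other way, with signals of 644 and 1026 and a log2 ratio of 0.89, higher than that of 92.7% of measured genes. Each of these 2 genes rests on a single probe set. The inducible subunits of one particle thus spanned a log2 ratio from -3.39 to 0.89, and without centring Psmb10 was still brighter in Fut8-/-, at 0.67.

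The constitutive subunits that the inducible ones replace were all somewhat brighter in Fut8-/- and all within 2-fold. Psmb5, the counterpart of Psmb8, had signals of 2191 and 2465 and a log2 ratio of 0.39. Psmb6, the counterpart of Psmb9, had signals of 2706 and 3562 and a log2 ratio of 0.62. Psmb7, the counterpart of Psmb10, had signals of 2623 and 2853 and a log2 ratio of 0.34. Each pair was compared by the difference of its ratios, inducible minus constitutive, which a common scaling of the array leaves unchanged. The difference was -3.78 for Psmb8 and Psmb5, a 13.7-fold shift. It was -1.33 for Psmb9 and Psmb6, a 2.52-fold shift, and 0.55 for Psmb10 and Psmb7, a 1.47-fold shift of the opposite sign. The last was below 0.57, the SD of a difference that follows from the scatter between probe sets. Psmb10 and Psmb7 have 1 probe set each. Their difference was 0.58 after quantile normalization, 0.61 after loess and 0.68 with each chromosome centred, and stayed at 0.55 under the other settings. The inducible genes were selected with their ratios known, so these differences are a description.

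**Figure D2:**
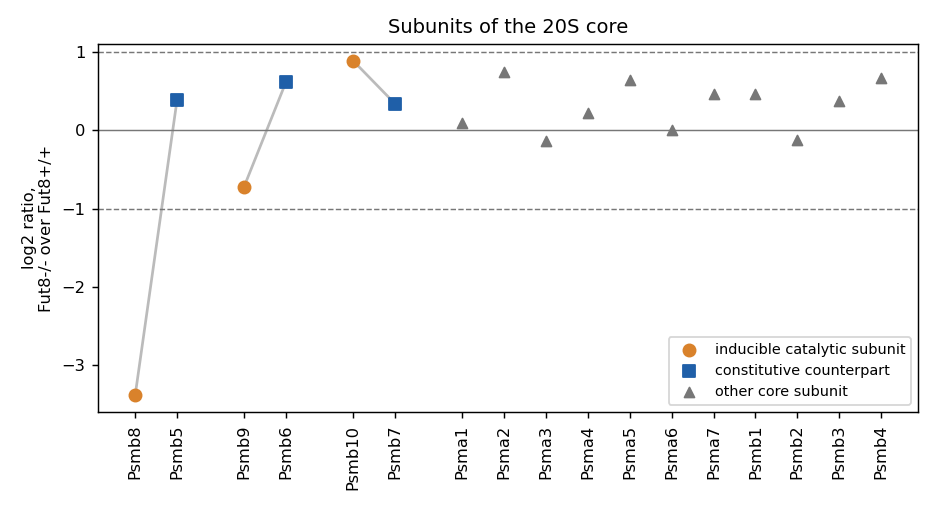
Centred log2 ratio of Fut8-/- over Fut8+/+ for the subunits of the 20S core, 1 point per gene from 1 array per genotype; grey lines join each inducible catalytic subunit (circle) to its constitutive counterpart (square), triangles are the remaining core subunits, and dashed lines mark 2-fold. Psmb8 lies far below Psmb5, Psmb9 below Psmb6, and Psmb10 above Psmb7, while the 14 other core subunits lie between -0.14 and 0.75.

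The other genes of the 20S core and of the 19S regulator lay within 2-fold, between -0.95 and 0.92. Of the 14 measured core subunits other than the inducible ones, 0 were at least 2-fold higher or lower, and their median log2 ratio was 0.38, or 0.16 without centring. Over all measured genes 8.46% were lower and 6.08% higher, so nothing is read from a count of 0 in lists this small. Psma2 (0.75), Psmb4 (0.67) and Psma5 (0.64), structural subunits of the rings, had the largest ratios besides Psmb6; Psma2 lies on chromosome 13, whose genes had a median of 0.56, and was at 0.19 with each chromosome centred. The 19S regulator, which recognises ubiquitinated proteins and unfolds them, gave 0 of 17 at least 2-fold higher or lower, with a median of 0.39, or 0.17 without centring. Its ATPase gene Psmc3 was at 0.92 and its deubiquitinase gene Psmd14 at 0.67. The lid subunit gene Psmd8, with signals of 2920 and 1297, was at -0.95, and it passed 2-fold without centring (-1.17). Psmd7, also of the lid, was at 0.70.

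Psme1, a subunit of the PA28 activator, differed little between the arrays. Its signals were 2117 and 2156, and its log2 ratio was 0.25, or 0.03 without centring. Of 11 measured assembly factors and other activators, 0 passed 2-fold, against 8.46% lower and 6.08% higher over all measured genes. Psme3, the nuclear relative of Psme1, had the largest ratio of that list at 0.61, although it fell to 0 when the median over its 3 probe sets was used. Psmg4 (0.51) and Psmg1 (0.46), chaperones of core assembly, followed, Psmg4 turning to -0.05 with its chromosome, 13, centred, and Psmd10, a chaperone of the regulator, was at 0.32. Pomp, the maturation factor of the core, was at 0.01. The list median was 0.04, and -0.17 without centring.

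Both subunits of the peptide transporter had unequal ratios. Tap1 had signals of 288 and 112 at its one measured probe set, a log2 ratio of -1.14 or 2.21-fold lower. Its other 3 probe sets, with signals between 0.727 and 8.24, lay under the floor on either array and give no ratio. The Tap1 call rests on the bright probe set alone: with the median over all 4 probe sets, which sets the dim ones to 0, the log2 ratio was 0. Tap2 had signals of 195 and 132 and a log2 ratio of -0.34, within 2-fold.

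Tapbp, which encodes the bridge between transporter and class I molecule, was lower at both of its probe sets by less than 2-fold. The brighter had signals of 2988 and 1979 and a log2 ratio of -0.38, the dimmer signals of 141 and 83.5 and a log2 ratio of -0.54. B2m, the light chain, was lower at both of its probe sets by less than 2-fold. They had signals of 9947 and 5766 in one case and 9428 and 5373 in the other. Their log2 ratios, -0.57 and -0.59, lay closer together than the usual scatter of 0.40 between probe sets of a gene.

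Erap1, the aminopeptidase that shortens peptides to class I length, had 2 probe sets of opposite sign. The brighter had signals of 211 and 160 and a log2 ratio of -0.18, the dimmer signals of 60.3 and 76.5 and a log2 ratio of 0.56. Erap1 lies on chromosome 13, whose 377 measured genes had a median log2 ratio of 0.56, and after centring each chromosome on its own median Erap1 was at -0.74. The part of this shift in the Erap1 ratio was not tested.

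Placed in order, the ratios ran from Psmb8 through Tap1, Psmb9, B2m, Tapbp, Tap2, Erap1 and Psme1 to Psmb10. Of the 8 steps between neighbours in this order, 2 were larger than the SD of 0.57 for a difference: the step of 2.25 from Psmb8 to Tap1 and the step of 0.65 from Psme1 to Psmb10. The other steps, from 0.03 to 0.43, were not. These steps describe 1 pair of arrays, and the SD covers the scatter between probe sets only.

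Psmb9, Tap1, Psmb8 and Tap2 lie next to each other, in that order, in the class II region of chromosome 17. Their log2 ratios along the chromosome were -0.72, -1.14, -3.39 and -0.34, while the median of the 490 measured genes of chromosome 17 was 0.14. Few of the surrounding genes were bright enough to compare. On the side of Psmb9, the chromatin reader gene Brd2 had signals of 371 and 697 (2.19-fold higher) and H2-DMa signals of 36.5 and 34.4 (0.13). On the side of Tap2, none of the class II genes H2-Ob, H2-Ab1, H2-Aa and H2-Eb1 reached the measured limit on either array. Around Tapbp, which lies elsewhere on the same chromosome, B3galt4 was 2.86-fold higher with signals of 21.4 and 52.5, and Wdr46 was at 0.88, whereas Daxx, Zbtb22, Rgl2, Pfdn6 and Rps18 lay between -0.32 and 0.25. Of 9 measured neighbours of the chromosome 17 genes, taken 5 to each side, 0 passed 2-fold downwards, against 8.46% of all measured genes. Upwards 2 passed it, against 6.08%, and of these B3galt4 reached the measured limit on the Fut8-/- array only. Nothing is read from counts this small. Around the other members 1 further neighbour passed 2-fold, Pck2 near Psme1, which encodes the mitochondrial phosphoenolpyruvate carboxykinase, with signals of 1134 and 358 (2.73-fold lower).

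**Figure D3:**
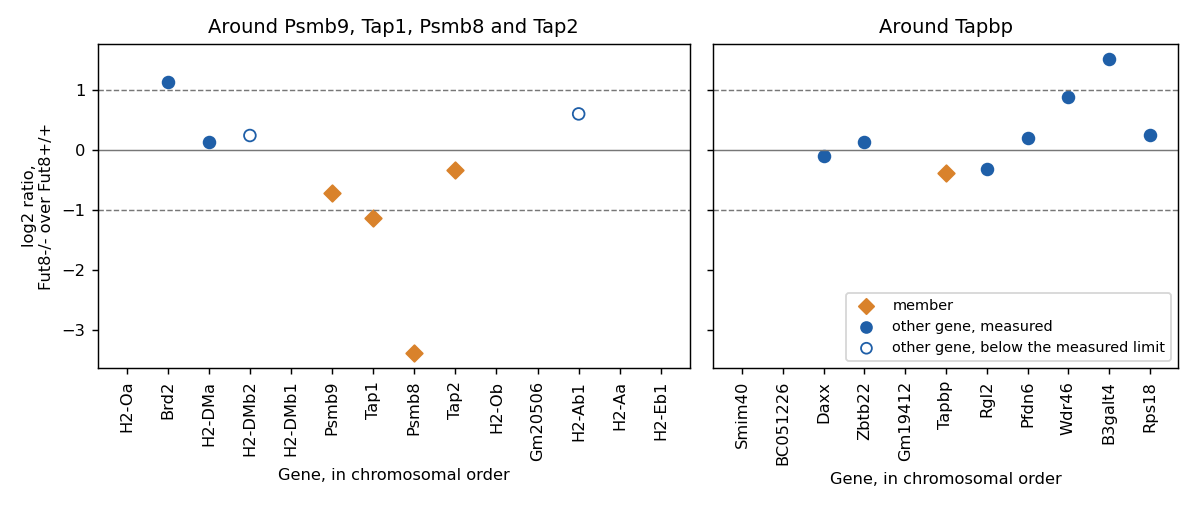
Centred log2 ratio of Fut8-/- over Fut8+/+ for genes in chromosomal order on chromosome 17, around the run from Psmb9 to Tap2 (left) and around Tapbp (right), 1 point per gene; diamonds are members, filled circles other measured genes, open circles genes below the limit of 39.1 on both arrays, and names without a point have no ratio here. Psmb8 is lowest at -3.39 and Tap1 is the other point below the 2-fold line, while Tap2 (-0.34), Tapbp (-0.38) and Rgl2 (-0.32) lie about level and Brd2 and H2-DMa lie above 0.

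The classical class I heavy chain H2-K1, which presents peptide on the cell surface with B2m, was lower at all 4 of its probe sets, by 2-fold to 6.80-fold. The brightest had signals of 6922 and 2702, and the one with the lowest ratio signals of 4210 and 532. H2-D1, the second classical heavy chain, had 9 probe sets, of which 5 were measured. Of these, 4 were negative and 2 at least 2-fold lower, over a range from -1.37 to 0.07; the brightest had signals of 5982 and 2712 (-0.92). Class I heavy chains are close relatives of one another and differ between mouse strains, and most of these probe sets carry the manufacturer's suffix for probes that may bind related transcripts, so their values cannot be assigned to one gene with certainty. Of the 25 listed heavy chain and class I-like genes, 14 had a probe set of their own name and 9 were measured. Of these 9, 3 were at least 2-fold lower (H2-K1, H2-Bl and Mr1), against 8.46% of all measured genes. A further 2 were at least 2-fold higher (Hfe and Cd1d1), against 6.08%. The median was -0.51, and nothing is read from counts this small. Hfe, which binds the transferrin receptor in place of peptide, had signals of 49.2 and 194 (4.58-fold higher, a log2 ratio of 2.20); it was at 1.63 after centring chromosome 13, where it lies, and at 1.57 with the median over its probe sets. Cd1d1, a lipid-presenting molecule, had signals of 25.7 and 58.4 (2.65-fold higher). H2-Bl had signals of 57.5 and 16.8, and Mr1, which presents vitamin B metabolites, was 2.53-fold lower. H2-Bl and Mr1 reached the measured limit on the Fut8+/+ array only, and Cd1d1 on the Fut8-/- array only. These genes thus entered through the array where they were brighter, whereas H2-K1 and Hfe passed the limit on both arrays. Under a higher floor, the 60th percentile, H2-Bl (-0.56), Mr1 (-0.08) and Cd1d1 (0.80) no longer passed 2-fold.

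General folding factors of the loading complex lay within 2-fold. Calreticulin (Calr) was at -0.36, about level with Tapbp (-0.38). Calnexin (Canx) was at -0.07 and the thiol oxidoreductase gene Pdia3, whose product joins tapasin, at 0.04. Of 12 measured folding factors and peptidases 1 was at least 2-fold lower, against 8.46% of all measured genes, and 0 higher, against 6.08%. The 1 was Tapbpl, which encodes a tapasin relative that edits peptides, with signals of 191 and 79.6 (2.06-fold lower). It was within 2-fold after quantile normalization (-0.98), after centring each chromosome (-0.91) and with the median over its probe sets (-0.88). Among cytosolic peptidases, Lap3 was at 0.61, Thop1 at 0.53 and Nrd1 at -0.62. The list median was 0.19, and -0.03 without centring.

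Of the known regulators of class I genes, Nlrc5 stood lowest beside Usp18. Nlrc5, the transactivator of class I genes, had signals of 132 and 22.2 (5.09-fold lower). It reached the measured limit on the Fut8+/+ array only, and its log2 ratio of -2.35 was -1.75 with the floor at the 60th percentile. Usp18, a brake on type I interferon signalling that interferon itself induces, had signals of 1278 and 185 (5.93-fold lower). The 1 listed gene at least 2-fold higher was Rfxap, a subunit of the RFX complex that binds class I and class II promoters, with signals of 322 and 1356 (4.90-fold). Its partners Rfx5 and Rfxank were at 0.69 and 0.75. Of the 25 measured genes of the list, 2 were thus lower, against 8.46% of all measured genes, and 1 higher, against 6.08%. The other 22 lay within 2-fold, and the list median was -0.04. The receptor genes Ifnar1 (-0.03), Ifnar2 (-0.15), Ifngr1 (0.15) and Ifngr2 (-0.29) and the factor genes Irf1 (-0.11), Irf2 (-0.04) and Irf9 (-0.01) all lay near 0. The interferon gene Ifnb1 was dim on both arrays, at 15.9 and 19.1. Socs3, an inhibitor of cytokine receptors, was at 0.86.

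Other interferon-induced genes ranged in log2 ratio from -3.79 to 1.94. Of 47 measured, 18 passed the 2-fold limit downwards, against 8.46% of all measured genes, and 1 upwards, against 6.08%, and the median was -0.64. Among the 18, Oas2, Oas3 and Sp100 reached the measured limit on the Fut8+/+ array only, so they entered through the array where they were brighter. With the filter at the 75th percentile 13 were lower, against 6.05% of all genes measured under it. This list overlaps one already known to be lower on these arrays and is no independent support. The 4 largest absolute log2 ratios of the list, between -3.79 and -2.84, were negative. They belonged to the antiviral genes Oas1a (2115 and 131) and Oas2 (107 and 9.37, at least 8.67-fold lower), the factor gene Irf7 (504 and 60.6) and Trim30a (620 and 57.3). Psmb8, at -3.39, falls in that range, but these genes are named because they are the extreme of the list. Ifit1 (-0.59), Ifitm3 (-0.51) and Ifit2 (-0.31) lay nearer the list median. The interferon-induced GTPase genes, picked with their values in view, went both ways: Gbp3 (-1.42), Gbp7 (-0.98) and Igtp (-0.64) had negative log2 ratios, Irgm1 (0.08), Iigp1 (0.09) and Gbp2 (0.61) positive ones. The GTPase gene Ifi47, with signals of 97.3 and 321 (log2 ratio 1.94), was the 1 past 2-fold upwards. The chemokine gene Cxcl10 was bright and nearly level, at 3327 and 3483.

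**Figure D4:**
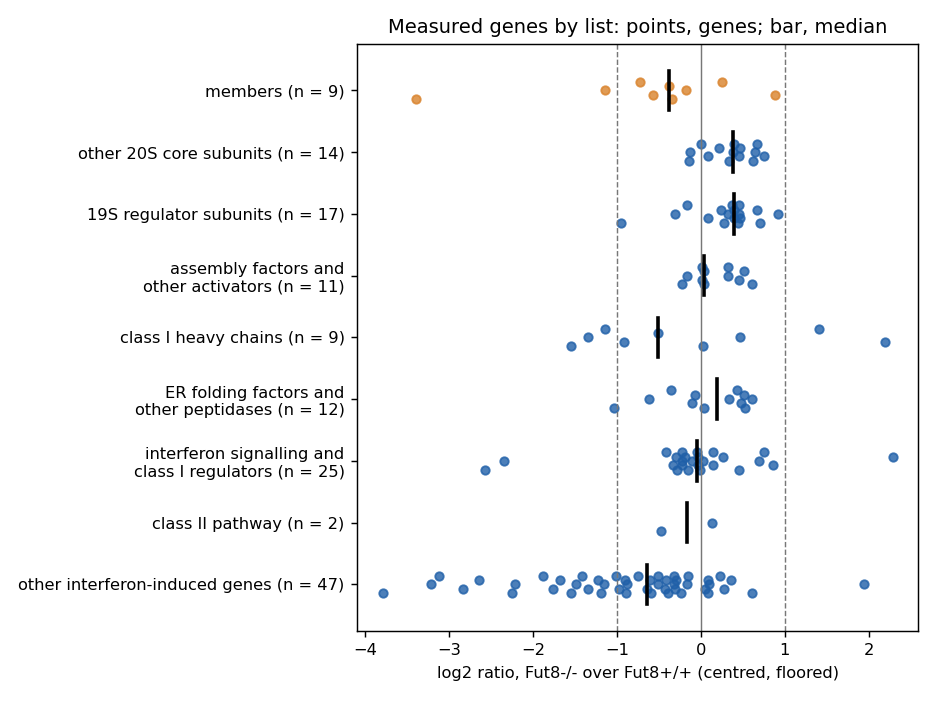
Centred log2 ratio of Fut8-/- over Fut8+/+ for each measured gene (points, 1 array per genotype) of the 9 members and of 8 gene lists, with the median of each as a bar and dashed lines at 2-fold. The 20S core and 19S regulator genes lie within 2-fold with medians of 0.38 and 0.39, whereas the members, the heavy chains and the interferon-induced genes have medians of -0.38, -0.51 and -0.64 and wide spreads.

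The class II pathway, whose H2 genes lie on chromosome 17 as Psmb8 and Tap1 do, was barely detected. Of 9 genes with a probe set, 2 were measured, H2-DMa and, on chromosome 18, the invariant chain gene Cd74 (47.3 and 29.4, log2 ratio -0.47). H2-DMa (36.5 and 34.4) passed the limit only through its scaled Fut8-/- signal of 40. The class II transactivator gene Ciita, on chromosome 16, was below the limit, at 13.9 and 21.2. Leukocytes express the immunoproteasome without stimulation, so their markers were examined. Of 15 leukocyte markers with a probe set, 4 were measured and 0 passed 2-fold (Laptm5 0.92, Cd14 -0.75, Coro1a 0.61, Csf1r -0.24), and 7 were below the floor on both arrays, among them Ptprc (3.85 and 2.57), Itgam and Cd3e. The signals of the list summed to 359 in Fut8+/+ and 281 in Fut8-/-, or 327 in Fut8-/- after scaling. Cd14 (122 and 62.4) was the largest part of both sums, which also hold the genes below the floor. Of 10 endothelial markers, Egfl7 (-0.55) and Eng (0.47) were measured and Pecam1 was below the floor on both arrays. Of 16 fibroblast markers 12 were measured, 4 at least 2-fold lower (Prrx1, Fn1, Col1a1 and Pdgfra; 8.46% of all measured genes) and 1, Pdgfrb, at least 2-fold higher (6.08%). Prrx1 (221 and 7.26) and Pdgfra (61.9 and 23.6) reached the measured limit on the Fut8+/+ array only. The part of these values in those of the pathway was not tested. In bulk RNA, fewer cells with a transcript and less transcript per cell cannot be told apart.

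**Figure D5:**
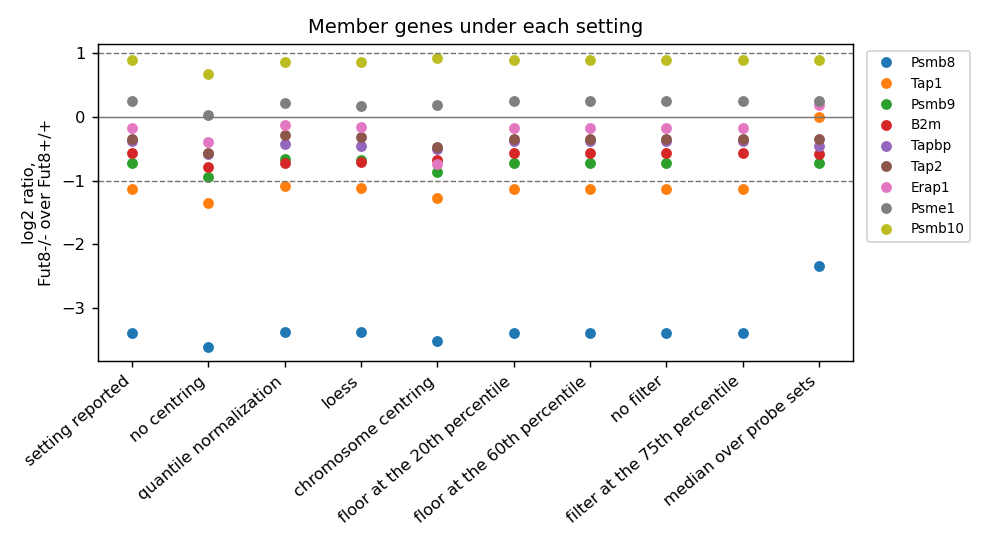
Log2 ratio of Fut8-/- over Fut8+/+ of the 9 members (points) under the setting reported and 9 alternatives, with dashed lines at 2-fold. Psmb8 is below -2 under each, Psmb10 is between 0.67 and 0.92 under each, and Tap1 moves to 0 with the median over probe sets.

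Across the reported setting and the 9 alternatives, Psmb8 ranged from -3.61 to -2.34, the latter with the median over its probe sets, and B2m from -0.79 to -0.57. Tap2 stayed between -0.56 and -0.29, Tapbp between -0.59 and -0.38 and Psme1 between 0.03 and 0.25. Psmb9 ranged from -0.94 to -0.66 where it was measured, and was below the limit when that was raised to the 75th percentile. Erap1 ranged from -0.74 to 0.19 and has no settled direction.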

How the data were processed

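Biotin-labelled RNA of Fut8+/+ and Fut8-/- MEFs was measured on 1 array each; whether it came from 1 culture or was pooled is not stated. The values are the authors' deposited signal intensity on a linear scale, 1 per probe set and array, made with GCOS per the submitters' processing notes. The sources used here do not give its version, signal algorithm, scaling target or detection calls, and whether the arrays were brought to a common centre is unknown: the medians were 20.5 and 16.9.

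Log2 ratios were centred on the median of probe sets that exceeded the 40th percentile of each array, then signals were floored at the 40th percentile of the pooled scaled values. The limit for measured genes was the 60th percentile on the brighter array. Where a gene had several probe sets, the brightest by mean log2 signal stood for it. Names come from the platform annotation (34945 with 1 symbol, 932 with several, which were not used), and chromosomes and gene order come from the gene table of GRCm38.p6. Of 216 entries in 11 lists, 21 were not matched by symbol. With 1 array per genotype there is no p-value, and the number of arrays limits precision. The members and lists were chosen with earlier results of these data known. Genes named are the members, Psmb5, Psmb6, Psmb7, Fut8, up to 4 genes of each list with the largest absolute log2 ratio and neighbours past 2-fold; other names were picked with their values in view. Centring and the calling of large changes in bright genes were first tested at the reported setting on a simulated pair of arrays. The floor, filter and choice of probe set were run there but hardly tested. The changed genes were bright, and all probe sets of a gene were given the same change. The search for the GAS and ISRE motifs was tested on made-up sequence. The alternative settings and the remaining steps were not tested in this way. Python 3.11.15, numpy 2.4.6, pandas 2.3.3, statsmodels 0.14.6 (loess, span 0.4) and matplotlib 3.10.9 were used.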

Additional observations from a re-analysis of the deposited data

How the results depend on the processing

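Values were recomputed without centring, after quantile normalization, after loess, with each chromosome centred, with floors at the 20th and 60th percentiles, with no filter, with a filter at the 75th percentile and with the median over a gene's probe sets. With the last, 1 member was at least 2-fold lower in place of 2, and the difference between Psmb8 and Psmb5 was -2.73; by construction, probe sets below the floor then count as 0 or as a bound. In the 19S list 1 gene was at least 2-fold lower without centring, after quantile normalization and after loess. Among the heavy chains 1 gene was lower and 1 higher with the floor at the 60th percentile and likewise with the filter at the 75th; their median was -0.08 with that floor and 0 with no filter. Folding factors and peptidases gave 0 lower after quantile normalization, chromosome centring and the median over probe sets. The regulators gave 1 lower with the filter at the 75th percentile, where the class II list had no measured gene left. Where no construction is named, the cause was not tested. No paired analysis was possible because each genotype has 1 array. Genes near the floor have ratios that depend on it, and single arrays give no error between cultures.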
